A study of Mus musculus with 384 samples.

Results

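The genes described here are the collagens other than those of the basement membrane, in single mammary cells of mouse embryos and adults. They were taken as all genes of the count table whose mouse symbol has the form Col, number, a, number, without Col4a1 to Col4a6, Col15a1, Col17a1 and Col18a1. Of 44 collagen genes among 49585 genes, 35 were members. The cells came from 3 sort gates on 1 plate of 384 wells. Embryonic progenitors (CD49f Hi/Lgr5 Hi) came from dissected skin with the mammary buds of female Lgr5-EGFP-IRES-CreER embryos at embryonic day 14, where green fluorescence reports Lgr5, a receptor of the Wnt pathway. Basal cells (CD24+CD29Hi) and luminal cells (CD24+CD29Lo) came from adult Rosa-tdTomato mammary glands, with no age, animal or litter named for any well. All 3 sorts left out CD45-, CD31- and CD140a-positive cells, which are blood, endothelial and mesenchymal cells. Stage, allele and sort strategy change together between embryonic and adult wells and cannot be told apart. Each gate was therefore treated as 1 sample, cells were not treated as replicates, and no test was made.

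Collagens are matrix proteins built from 3 chains wound into a triple helix. The fibrillar types I, II, III, V, XI, XXIV and XXVII form or organise fibrils, with types I and III as the main fibrils of soft connective tissue. The FACIT types (fibril-associated collagens with interrupted triple helices) lie on fibril surfaces, type VI forms beaded microfilaments, type VII anchors the epidermal basement membrane to the dermis, and type VIII forms short-chain networks. In the mammary gland, fibrillar collagens are best known as products of stromal fibroblasts, whereas epithelial cells face a basement membrane of other collagen types.

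The promoters of Col1a2 and Col3a1 are shown because these 2 genes had the same 5 top wells in the embryonic gate. Over all kept embryonic wells their rank correlation was 0.356, below that of other pairs such as Col6a1 and Col6a3 (0.612). RefSeq promoter windows, from 250 bases before to 50 after the annotated start, were found for 27 of the 35 members, and no window was found for Col1a1. Capitals mark the CCAAT box (CCAAT or its reverse complement ATTGG) and the TATA motif (TATAAA or TTTATA), searched on both strands. The windows are on GRCm38.p6, at chr6:4505368-4505667 (+ strand) for Col1a2 and chr1:45311288-45311587 (+ strand) for Col3a1.
Col1a2: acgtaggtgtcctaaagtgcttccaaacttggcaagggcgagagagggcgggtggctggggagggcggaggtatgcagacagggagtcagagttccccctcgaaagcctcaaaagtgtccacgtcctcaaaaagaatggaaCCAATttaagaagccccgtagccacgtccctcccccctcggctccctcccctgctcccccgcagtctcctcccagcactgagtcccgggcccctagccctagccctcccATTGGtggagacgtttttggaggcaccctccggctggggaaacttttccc
Col3a1: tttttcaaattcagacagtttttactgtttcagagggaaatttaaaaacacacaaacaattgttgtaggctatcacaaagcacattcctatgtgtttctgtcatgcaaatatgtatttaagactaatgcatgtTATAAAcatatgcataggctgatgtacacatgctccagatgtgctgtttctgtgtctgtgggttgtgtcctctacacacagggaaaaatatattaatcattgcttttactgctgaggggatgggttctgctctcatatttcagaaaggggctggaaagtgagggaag
The Col1a2 window held 1 CCAAT before the start and 1 ATTGG whose first base is the start itself. The Col3a1 window held 1 TATAAA before the start and no CCAAT. Over all 32851 promoter windows, 37.4% held CCAAT or its complement and 13.6% held TATAAA or its complement. Of the 29 windows of members, 27.6% and 13.8% did so. Such a match describes the letters of a window and not a site in use.

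Wells with at least 50000 reads on genes were kept. They were 347 of 376 single-cell wells, of which 36.6% were embryonic, 31.1% basal and 32.3% luminal, after 10 embryonic, 10 basal and 9 luminal wells were left out. They had medians of 697578, 450196 and 525176 gene reads. All 384 index pairs differed, no doublet caller was run, and the 4 wells without a cell held 34 to 563 gene reads with 1 collagen read among them. The gates lay in blocks of plate rows, so row and gate cannot be told apart. By rank correlation with the wells of 50 cells, 1 embryonic, 10 basal and 3 luminal wells matched another gate best, and 8 of these basal wells matched the luminal one. At least 3 markers of the mesenchyme, collagens left out, were detected in 21 embryonic, 10 basal and 0 luminal wells. Ratios given without wells with 3 mesenchymal markers leave out both the embryonic and the basal ones. At least 3 luminal markers were detected in 17 basal wells, 3 endothelial markers in 6 basal wells and 3 pericyte markers in 1 embryonic and 2 basal wells. Detection means 5 reads after each well was thinned to 50000 reads. No well reached 3 markers of immune, Schwann, melanocyte, cartilage, muscle, adipocyte or suprabasal cells.

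With all kept wells, the summed collagen level was highest in the embryonic gate, an order that turned without the wells with mesenchymal markers. Summed over the 35 members, the level was 4779.8 CPM (reads of the gate scaled to 1000000 gene reads, exact 95% Poisson interval 4765.5 to 4794) in embryonic wells, 1598 (1587 to 1608) in basal wells and 295 (291 to 299) in luminal wells. Such intervals cover counting error only, because several amplified reads can stem from 1 molecule and no identifiers tell them apart. The order of single wells differed from that of the sums. The embryonic wells ranged from 30.2 to 97993 CPM around a median of 789, the basal wells from 0 to 7255 around 1531, and the luminal wells from 0 to 2847 around 131.98. The median embryonic well thus lay below the median basal well, all 3 ranges overlapped, and 5 embryonic wells held 57.5% of the gate's collagen reads against 18.9% in the basal and 23.9% in the luminal gate. Without wells with 3 mesenchymal markers the embryonic sum was 959.9 CPM and the basal sum 1523. In the wells of 50 cells the level was 9526, 1086 and 188 CPM in the same order. In summed reads and in wells of 50 cells, fewer expressing cells and less RNA per cell cannot be told apart.

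Of the 35 members, 27 reached 5 CPM in at least 1 gate and are named below, 4 had reads but stayed under 5 CPM, and 4 had no read. Between embryonic and basal wells, 15 of 26 measured members were higher by 2-fold or more in the embryonic gate and 7 were lower by as much. Over all 12808 genes measured the shares were 33.8% higher and 19.4% lower. Against luminal wells 20 of 25 measured members were higher and 4 lower in the embryonic gate, beside 39.3% and 17.6% of all genes. Between basal and luminal wells 15 of 19 were higher and 2 lower in the basal gate, beside 28.3% and 21.3% of all genes. A gene counted as measured at 5 CPM in the higher gate, so a member present only where it is high had to differ, and 9, 10 and 16 members entered no count. The median log2 ratio (1 CPM added to each level) of measured members was 1.80, 4.72 and 3.34 in these comparisons, against 0.38, 0.58 and 0.14 for all measured genes. The first 2 comparisons share the embryonic wells.

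**Figure D1:**
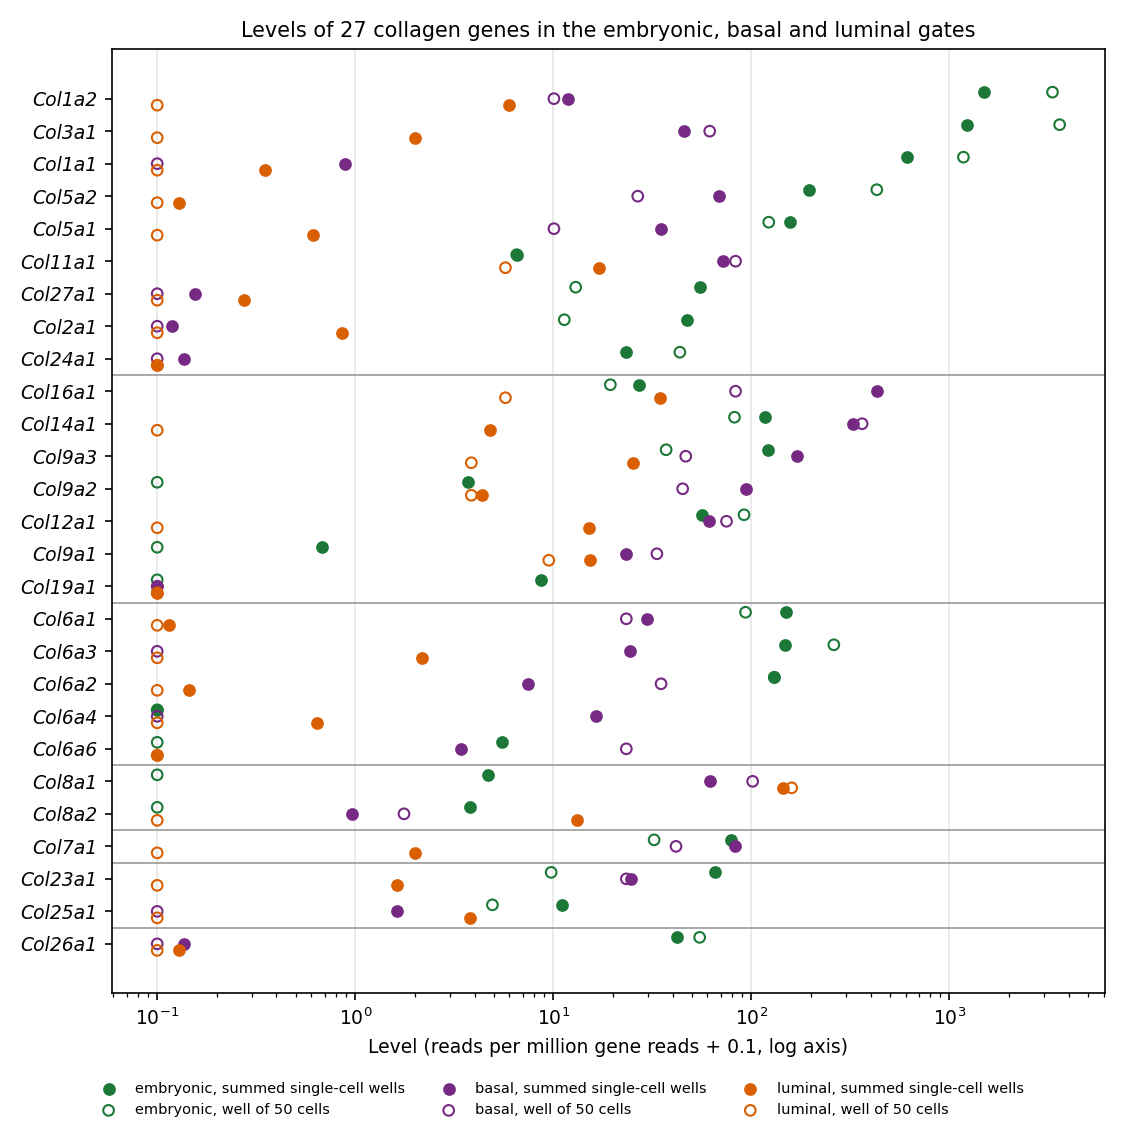
Level of the 27 named collagens (rows, grouped by class with lines between classes) in each gate, in CPM on a log axis, with 0.1 added so that 0 can be drawn. Filled points are summed single-cell wells and open points the well of 50 cells. Col1a2, Col3a1 and Col1a1 reach 1489.8, 1219.8 and 613 CPM in the embryonic gate, whereas Col16a1 and Col14a1 are highest in the basal gate and Col8a1 in the luminal gate.

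The fibrils of types I and III carried most embryonic collagen reads. Col1a2 (chromosome 6, 4504814 to 4541544, GRCm38), which encodes the second chain of type I collagen, was at 0, 34.4 and 43351 CPM in the lowest, median and highest embryonic well. In basal wells these values were 0, 0 and 409, and in luminal wells 0, 0 and 648. Most adult wells held no Col1a2 read, but the ranges overlapped. The summed level was 1489.8 CPM in embryonic wells against 11.7 in basal wells (126.97-fold, interval 117.5 to 137.4) and 5.88 in luminal wells (253-fold, 230 to 280).

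Col3a1 (chromosome 1, 45311538 to 45349706), the only chain of type III collagen, was at 0, 22.7 and 19748 CPM in the lowest, median and highest embryonic well. Its basal wells had a median of 0 and a maximum of 6228, and its luminal wells a median of 0 and a maximum of 260. Here 1 basal well reached into the upper embryonic range, and 99.6% of the basal reads lay in 5 wells. The summed levels were 1219.8 CPM in embryonic, 45.7 in basal and 1.90 in luminal wells, or 26.7-fold (25.7 to 27.8) and 641-fold (540.0 to 768) higher in the embryonic gate. Without the top basal well the basal level was 26.3 CPM, and the 2 basal wells with at least 3 pericyte markers held 47.6% of the basal reads. Whether pericytes had a part in the basal level was not tested.

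Col1a1 (chromosome 11, 94936224 to 94953042), the first chain of type I collagen, was at 0, 19.6 and 19600 CPM in the lowest, median and highest embryonic well. Among adult wells no basal well exceeded 41.5 and no luminal well 13.8, so its highest adult well lay far below the top of the embryonic range. The summed level was 613 CPM in embryonic, 0.788 in basal and 0.249 in luminal wells, which is 778-fold (578 to 1075) and 2466-fold (1540 to 4233) higher in the embryonic gate. Detection was counted in 26 embryonic wells (20.5%) and in no adult well. Short of detection, at least 1 Col1a1 read was present in 8 basal and 9 luminal wells. Col1a2 was detected in 48 and Col3a1 in 43 embryonic wells.

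Type V collagen, a minor fibrillar type that joins type I fibrils, was present in embryonic and basal wells. Col5a1 (chromosome 2, 27886425 to 28039514) was at 0, 29.01 and 1781 CPM in the lowest, median and highest embryonic well. The basal median was 0 and the basal maximum 1814, so these 2 ranges were alike at the top, while no luminal well exceeded 16.9. The sums were 156, 34.98 and 0.512 CPM, with the embryonic level 4.46-fold (4.25 to 4.68) above the basal one. Its partner Col5a2 (chromosome 1, 45374321 to 45503282) had a median of 0 in all gates, with maxima of 3604, 863 and 1.47 CPM. The Col5a2 sums were 194, 68.8 and 0.029 CPM, with the embryonic level 2.82-fold (2.73 to 2.93) above the basal one. Without wells with 3 mesenchymal markers the Col5a2 log2 ratio turned from 1.48 to -0.85.

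The other fibrillar genes fell into 2 patterns. Col27a1, Col2a1 and Col24a1, chains of types XXVII, II and XXIV, had nearly all reads in embryonic wells, at 55.1, 46.9 and 23.2 CPM against at most 0.761 CPM in any adult gate. Basal wells held 3 reads of Col27a1, 1 of Col2a1 and 2 of Col24a1, which gives ratios of 1002 (343 to 4859), 2559.7 (459 to 101128) and 633 (175 to 5230.0). Luminal wells held no Col24a1 read, so the embryonic level was at least 529-fold higher with 3 reads set in place of 0 over the gate. Without wells with 3 mesenchymal markers the Col24a1 log2 ratio to basal wells went from 4.55 to 0.93, while those of Col27a1 and Col2a1 were 5.82 and 5.78. Col11a1, a chain of the type XI fibrils of cartilage, showed the opposite order, with 6.42 CPM in embryonic, 71.5 in basal and 16.9 in luminal wells. Its basal level was 11.1-fold above the embryonic one. Of the basal reads 99.9% lay in the 83 basal wells with at least 3 myoepithelial markers, which held 80.04% of the gate's gene reads. Detection of Col11a1 was counted in 9 basal wells, and 77.1% of its basal reads lay in 5 wells. The luminal level of Col11a1 was not stable over ways of summing: with the mean of per-well CPM the basal over luminal log2 ratio was -0.09 in place of 2.02. Of 9 measured fibrillar members, 8 were 2-fold or more above and 1, Col11a1, below either adult gate in embryonic wells, beside 33.8% and 19.4% of all genes against basal and 39.3% and 17.6% against luminal wells. In the wells of 50 cells the embryonic over luminal log2 ratio of Col11a1 turned from -1.27 to 0.16.

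**Figure D2:**
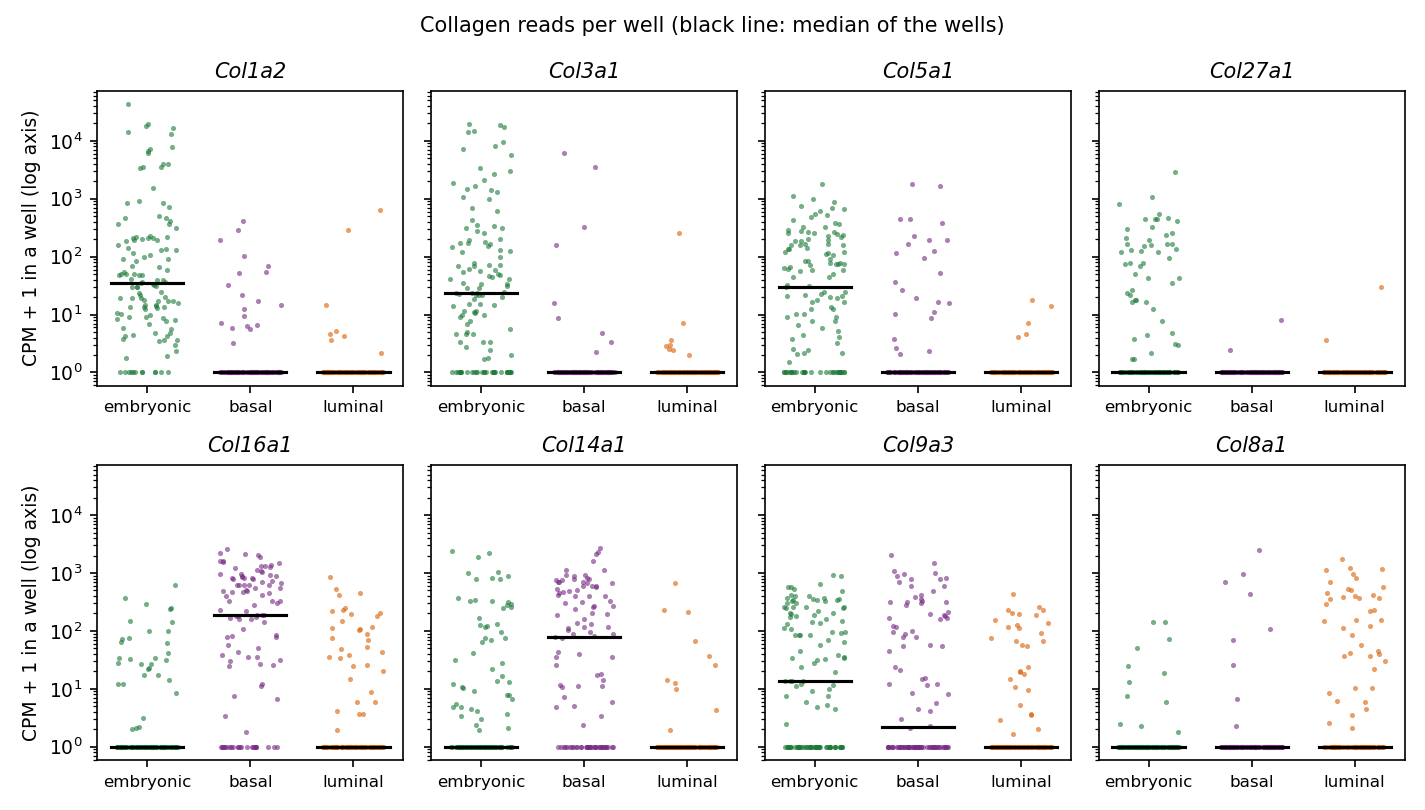
Level of 8 collagens in each kept well of the 3 gates (CPM with 1 added, log axis), with the median of the wells as a black line. Col1a2, Col3a1 and Col5a1 have median levels of 34.4, 22.7 and 29.01 CPM in embryonic wells and 0 in adult wells. Col16a1 and Col14a1 have medians above 0 only in basal wells, and Col8a1 reaches 1718 CPM in luminal and 2524 CPM in basal wells.

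Few wells held most of the reads of most members. Among 22 members at 5 CPM or more in the embryonic gate, 17 had at least 50% of their reads in 5 wells, beside 47.5% of all genes at that level. In the basal gate 11 of 18 did so, beside 82.2% of all genes, and in the luminal gate 7 of 8, beside 66.4%. The median share in 5 wells was 65.1% for embryonic members against 48.002% for all genes, 78.8% against 79.6% in the basal gate, and 85.1% against 63.4% in the luminal gate. The basal members were therefore not above the share of all basal genes at 5 CPM or more. Among genes at 20 to 2000 CPM, the median share was 38.6% in the embryonic, 67.3% in the basal and 50.3% in the luminal gate. The members' medians lay above these values in all gates, but they include members under 20 CPM. In the embryonic gate the 5 top wells held 69.5% of Col1a1, 64.7% of Col1a2 and 69.4% of Col3a1 reads, but 25.998% of Col9a3 and 30.7% of Col7a1 reads. Col24a1 had 49.2% of its reads in 1 well. Without its own top well, Col1a2 was at 1208 CPM, Col3a1 at 964 and Col1a1 at 447.

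**Figure D3:**
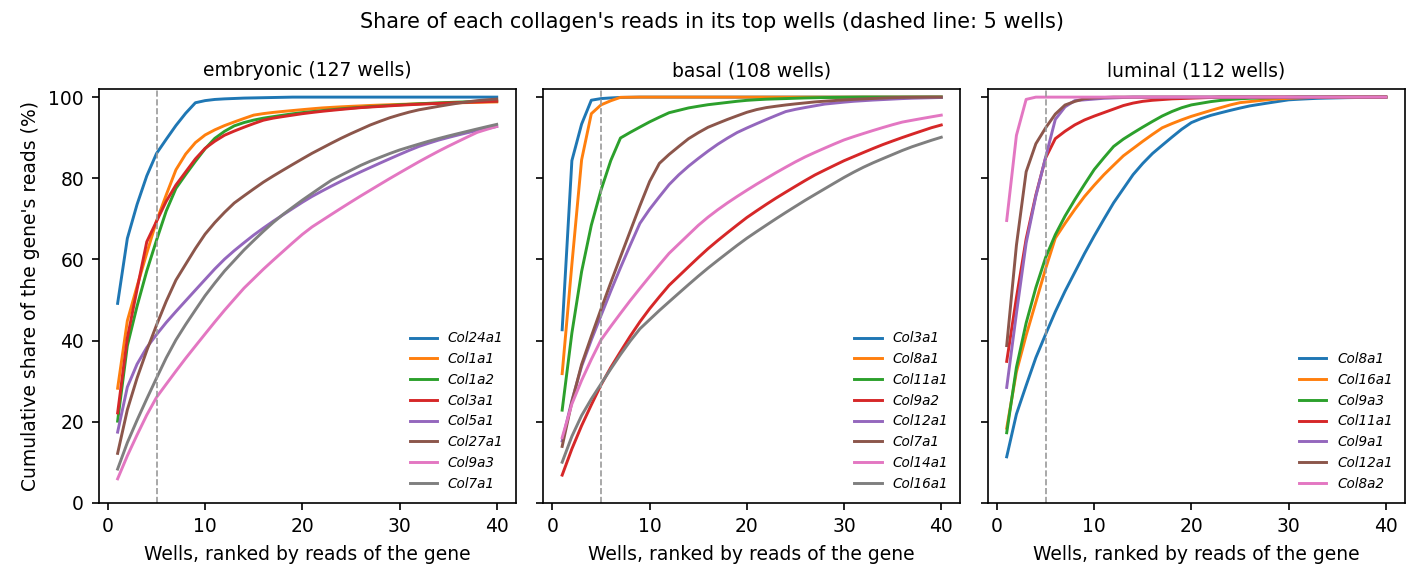
Cumulative share of a collagen's reads (y axis, %) over wells ranked by their reads of that gene (x axis, the first 40 wells) in each gate, with a dashed line at 5 wells. In the embryonic gate Col1a1, Col1a2 and Col3a1 reach 64.7% to 69.5% by 5 wells and Col9a3 reaches 25.998%. In the basal gate Col3a1 reaches 99.6% and Col16a1 29.3%.

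The embryonic wells rich in fibrillar collagen were largely those with mesenchymal markers. The marker list held 13 genes without collagens, such as Pdgfra, Twist1, Prrx1 and Dcn, of which Dcn, Lum and Postn are also among the fibril-associated genes below. Its summed level was 457 to 14297 CPM in the 21 embryonic wells with at least 3 markers detected and 0 to 3686 CPM in the rest. In basal wells it was 0 to 21713 CPM and in luminal wells 0 to 3001 CPM, with Dcn and Postn at 924 and 1475 CPM and Dpt at 0 in the basal gate, and Lum, Twist1, Prrx1 and Thy1 at 0 in the luminal gate. Over the 21 wells the sum of Col1a1, Col1a2 and Col3a1 was 23.8, 10124 and 82698 CPM in the lowest, median and highest well, and over the rest it was 0, 111.8 and 12787. The 2 ranges overlapped, and 13 of the 15 embryonic wells above 5000 CPM were among the 21. These wells held 18.8% of the gate's gene reads but 94.8% of Col1a1, 92.1% of Col1a2 and 88.4% of Col3a1 reads. The 10 basal wells with at least 3 markers differed, with a sum of 0, 5.16 and 3918 CPM in the lowest, median and highest well. The smooth muscle actin Acta2 was at 8972 CPM in them and 9517 in the other basal wells. In the whole basal gate, Postn was detected in 64 and Dcn in 47 wells. Pdgfra encodes CD140a, the antigen used to exclude cells at the sort, and its transcript was detected in 13 embryonic, 10 basal and 2 luminal wells. Its level was 54.8 CPM in the embryonic, 58.1 in the basal and 4.59 in the luminal gate.

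**Figure D4:**
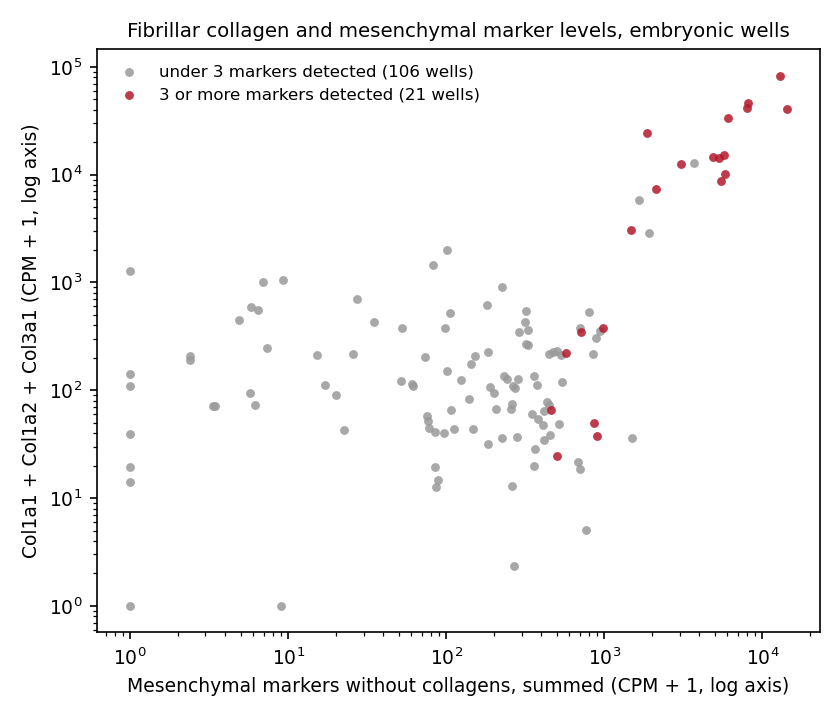
Summed Col1a1, Col1a2 and Col3a1 (y axis) against the summed mesenchymal markers without collagens (x axis) in each embryonic well, both in CPM with 1 added on log axes. The 21 wells with 3 or more markers detected (red) reach 82698 CPM, and the others (grey) have a median of 111.8 CPM.

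Most epithelial transcripts examined were lower in the 21 wells but not absent. Krt5, a basal keratin, was at 119.4 CPM in them and 345 in the others, Krt14 at 580 and 1108, Epcam, an epithelial adhesion protein, at 432 and 749, and Lgr5 at 330 and 601. Krt18 was alike, at 201 and 209 CPM, and Acta2, a smooth muscle actin, was at 108.7 CPM in the 21 wells and 4.93 in the others. These pooled levels came from part of the 21 wells: the summed keratins had a median of 4.75 CPM (0 to 3558) in them and 1606 in the others. At least 5 reads of Krt5, Krt14, Krt8, Krt18 or Epcam after thinning were found in 11 of the 21. Median gene reads were alike, at 703560 and 695902 a well. The part of mesenchymal cells, or of wells with more than 1 cell, in the collagen levels was not tested. In the embryonic wells outside the 21, pooled Col1a1 was at 39.03 CPM, Col1a2 at 145 and Col3a1 at 174. These pooled levels still lay above the basal and luminal gates (log2 ratios to basal wells, likewise without marked wells, of 5.13, 3.76 and 2.65). For the same genes, the median well outside the 21 was at 13.9, 26.3 and 18.2 CPM and the highest at 1055, 3508 and 8224.

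Members differed in where their reads lay. Col6a3 (97.6%), Col24a1 (96.6%), Col23a1 (94.04%), Col6a1 (91.05%), Col6a2 (90.1%), Col5a2 (87.8%), Col26a1 (81.9%), Col12a1 (77.4%) and Col14a1 (75.9%) had most embryonic reads in the 21 wells. Col5a1 (60.2%) and Col16a1 (38.6%) were intermediate. Col7a1 (19.8%), Col27a1 (16.4%), Col9a3 (5.98%) and Col2a1 (5.02%) had shares near or below the 18.8% of all gene reads there. Among sparser members the share was 99.6% for Col6a6, 19.6% for Col11a1, 2.75% for Col25a1 and 0.914% for Col19a1. Without wells with 3 mesenchymal markers, 10 of 24 measured members were 2-fold or more above and 10 below the basal level in embryonic wells, in place of 15 and 7. Over all genes the shares in this setting were 34.5% above and 20.2% below. The median log2 ratio of the members then was -0.43, against 0.40 for all genes. Among called members, Col23a1, Col6a3, Col5a2 and Col6a1 changed sign.

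**Figure D5:**
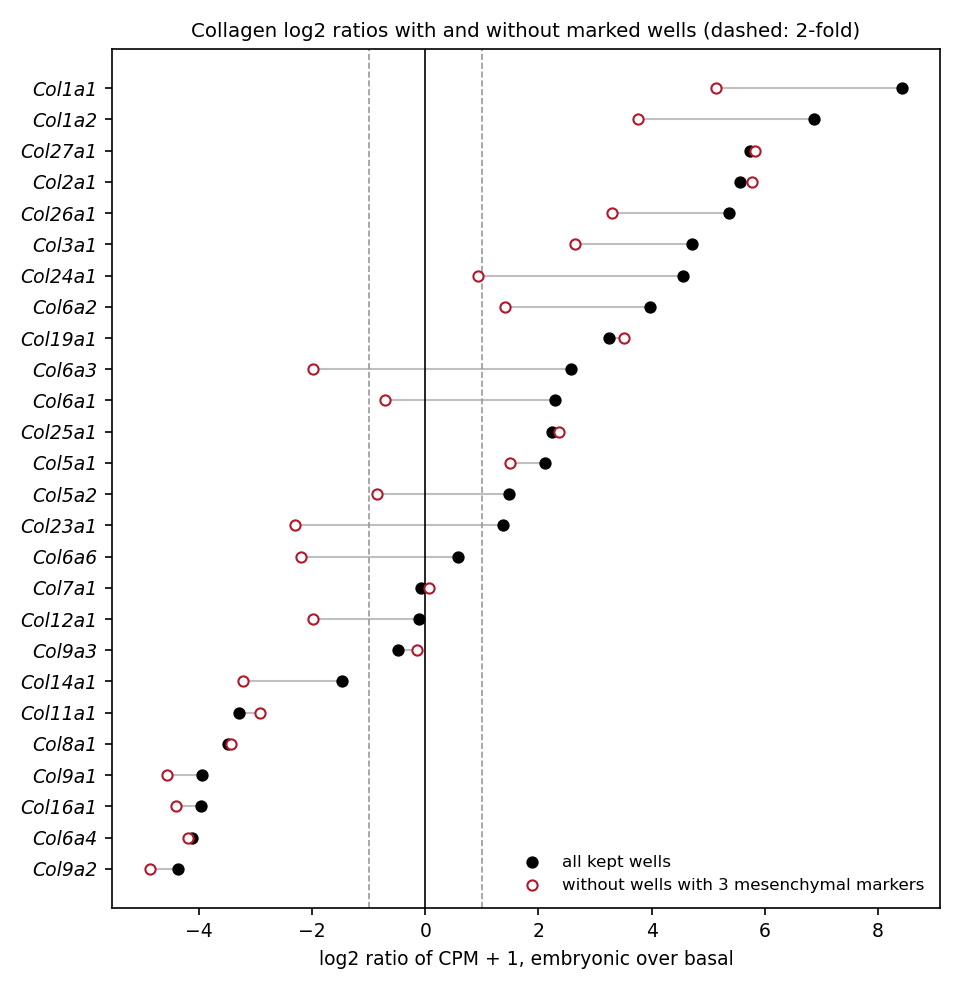
Log2 ratio of embryonic over basal level (x axis, 1 CPM added) for 26 measured collagens, with all kept wells (black) and without wells with 3 mesenchymal markers (open red), with dashed lines at 2-fold. Col23a1, Col6a3, Col5a2 and Col6a1 move from above to below 0, whereas Col27a1, Col2a1 and Col19a1 hardly move.

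Type VI collagen was among the members that depended on these wells. Col6a1, Col6a2 and Col6a3 encode the 3 chains of the main type VI microfilament. Col6a1 was at 149 CPM in embryonic wells (highest well 2561), 29.5 in basal wells (highest 1272) and 0.015 in luminal wells (1 read). Col6a2 was at 130.02, 7.31 and 0.044 CPM, with highest wells of 3108, 484 and 5.36. Col6a3 was at 148, 24.1 and 2.06 CPM, with highest wells of 3003, 1451 and 94.1. The median well was at 0 for all 3 genes in all gates, so the ranges overlapped from below. Embryonic over basal folds were 5.06 (4.803 to 5.33), 17.8 (16.1 to 19.7) and 6.13 (5.79 to 6.49). Without wells with 3 mesenchymal markers the log2 ratios of Col6a1 and Col6a3 went from 2.30 to -0.71 and from 2.57 to -1.99, while that of Col6a2 stayed above 0 at 1.41. The alternative type VI chains were sparse. Col6a4 had no embryonic read and 16.4 CPM in basal wells, at least 492-fold above the embryonic gate with 3 reads over the gate in place of 0, and 99.8% of its basal reads lay in 5 wells. Col6a6 was at 5.42 CPM in embryonic and 3.30 in basal wells and had no luminal read.

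FACIT collagens were mostly a basal feature. Col16a1 (chromosome 4, 130047840 to 130099283), which encodes type XVI collagen, was at 0, 187 and 2584 CPM in the lowest, median and highest basal well. Embryonic wells had a median of 0 and a maximum of 613, and luminal wells a median of 0 and a maximum of 854. The ranges overlapped, but a read was found in 85 basal, 33 embryonic and 35 luminal wells, and detection was counted in 63 (58.3%), 9 (7.09%) and 19 (16.96%). The sums were 433, 26.9 and 34.3 CPM in the basal, embryonic and luminal gates, so that Col16a1 was 16.1-fold above the embryonic and 12.6-fold (12.1 to 13.2) above the luminal level. The basal well of 50 cells gave 83.1 CPM, well under the sum of single cells, and was still the highest of the 3 wells of 50 cells.

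Col14a1 (chromosome 15, 55307750 to 55520803), type XIV collagen of fibril surfaces, had the second highest basal level per kilobase. It was at 0, 76.1 and 2702 CPM in the lowest, median and highest basal well, with maxima of 2377 in embryonic and 670 in luminal wells at medians of 0. Basal and embryonic ranges overlapped almost fully, and the groups differed in how many wells were high: detection was counted in 48 basal, 25 embryonic and 3 luminal wells. The sums were 327, 117.3 and 4.70 CPM in basal, embryonic and luminal wells, with the basal level 2.79-fold above the embryonic and 69.6-fold (62.3 to 77.99) above the luminal one. Without wells with 3 mesenchymal markers the embryonic over basal log2 ratio went from -1.47 to -3.23.

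The 3 chains of type IX collagen, best known from cartilage, differed among themselves. Col9a3 (chromosome 2, 180597790 to 180622189) was at 0, 12.6 and 937 CPM in the lowest, median and highest embryonic well, at 0, 1.21 and 2072 in basal wells and at 0, 0 and 436 in luminal wells. The embryonic and basal ranges overlapped, with sums of 121.2 and 169 CPM (1.398-fold) against 25.1 in luminal wells. Col9a2 was at 3.60 CPM in embryonic, 93.9 in basal and 4.24 in luminal wells, and Col9a1 at 0.578, 23.2 and 15.2 CPM. Col9a2 was thus 26.1-fold and Col9a1 40.1-fold higher in basal than embryonic wells, while Col9a3 was not 2-fold different. All 52 embryonic reads of Col9a1 came from 1 well. Col9a3 overlaps Tcfl5 on the other strand, and without a stated strand mode reads of the 2 genes cannot be told apart. Of 5 cartilage markers, Matn1 and Hapln1 had no read in any gate, Acan had 90 embryonic, 0 basal and 5 luminal reads, Cnmd was at 22.9 CPM in luminal wells and under 1 CPM elsewhere, and Sox9, which is not confined to cartilage, was at 133.9, 337 and 283 CPM in embryonic, basal and luminal wells. No well had 3 of them detected.

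Col12a1, type XII collagen of fibril surfaces, was at 56.5 CPM in embryonic, 60.7 in basal and 15.0 in luminal wells. The first 2 levels were alike (1.07-fold), but without wells with 3 mesenchymal markers the log2 ratio went from -0.10 to -1.99. Col19a1, type XIX collagen, had 8.52 CPM in embryonic wells and no adult read, at least 155-fold above the basal and 194-fold above the luminal gate with 3 reads over the gate in place of 0, and 72.2% of its reads lay in 1 well. Of 7 measured FACIT members, Col19a1 was 2-fold or more above the basal level in embryonic wells and 4 were below it, beside 33.8% and 19.4% of all genes.

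The short-chain collagen Col8a1 (chromosome 16, 57624258 to 57754737) marked a subset of luminal wells. It was at 0, 0 and 1718 CPM in the lowest, median and highest luminal well, with maxima of 2524 in basal and 144 in embryonic wells. Detection was counted in 27 luminal wells (24.1%, exact Clopper-Pearson interval 16.5% to 33.1%), 6 basal and 3 embryonic wells. The sums were 144, 61.5 and 4.56 CPM in the luminal, basal and embryonic gates, 31.5-fold higher in luminal than in embryonic wells and 2.33-fold higher than in basal wells. Of the 3354 basal reads all but 1 lay in the 17 basal wells with at least 3 luminal markers, where Col8a1 was at 263 CPM against 0.0239 in the other 91. Without these 17 wells, the embryonic over basal log2 ratio turned from -3.49 to 2.44. Whether luminal cells had a part in the basal level was not tested.

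Within the luminal gate, Col8a1 went with the receptor genes Prlr and Esr1 and against Kit and Csn3. Across the kept luminal wells the 5 genes with the highest Spearman rho to Col8a1, between 0.738 and 0.744, were Slc7a2, Fam25c, Dnajc12, Prom1 and Gpx3. Further genes were chosen after these values were seen. Prlr, the prolactin receptor, had a rho of 0.737, Esr1, the oestrogen receptor, 0.725, and Ly6a 0.654. Kit, a receptor of luminal progenitors, had -0.628, the milk protein gene Csn3 -0.603 and Elf5, a transcription factor of milk-secreting cells, -0.501. Thinned to equal depth, the values were 0.697 for Prlr, 0.719 for Esr1 and -0.572 for Kit. In the 27 wells with Col8a1 detected, Prlr was at 5418 CPM against 1294 in the other 85, Esr1 at 465 against 117.995, Kit at 2.62 against 480.5 and Csn3 at 52.1 against 8209. The first 2 genes were thus higher, and the other 2 lower, where Col8a1 was found. Prlr was detected in all 27 and Elf5 in 0 of them, against 42 and 20 of the other 85. These wells were grouped by Col8a1 itself, so the values describe them and no test was made. Its relative Col8a2 was at 13.04 CPM in luminal wells, with 69.6% of the reads in 1 of 4 wells, and at 3.68 and 0.862 CPM in embryonic and basal wells. As a mean of per-well CPM, its embryonic over luminal log2 ratio turned from -1.58 to 0.17.

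The anchoring fibril gene Col7a1 was as high in embryonic as in basal wells. It had levels of 0, 10.0 and 1094 CPM in the lowest, median and highest embryonic well and 0, 0 and 1501 in basal wells, and no luminal well exceeded 207. The sums were 78.6, 82.3 and 1.90 CPM, a 1.05-fold difference between embryonic and basal gates (interval of the embryonic over basal CPM ratio 0.920 to 0.991) and 41.3-fold between embryonic and luminal gates. In the basal gate 99.8% of Col7a1 reads lay in the 83 wells with at least 3 myoepithelial markers, which held 80.04% of the gate's gene reads.

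The measured transmembrane collagens and Col26a1 had their highest sums in the embryonic gate. There, 5 wells held 65.4% of Col23a1, 89.4% of Col25a1 and 69.9% of Col26a1 reads, beside a median of 65.1% for embryonic members. Col23a1, type XXIII collagen of cell membranes, was at 65.5 CPM in embryonic, 24.6 in basal and 1.52 in luminal wells. Its embryonic over basal log2 ratio was 1.38 and went to -2.31 without wells with 3 mesenchymal markers and to -1.19 in the wells of 50 cells, and 78.8% of its basal reads lay in 1 well. Col25a1, another transmembrane type, was at 10.9, 1.52 and 3.69 CPM, with all basal reads in 1 well and 96.03% of luminal reads in 1 well. Col26a1, type XXVI collagen, was at 41.8 CPM in embryonic wells and had 2 reads in each adult gate, for ratios of 1139 (315 to 9409.8) to basal and 1427 (395 to 11791) to luminal wells.

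The remaining members were scarce. The fibrillar genes Col11a2 and Col5a3 reached at most 4.45 and 1.21 CPM, both in basal wells, and 90.9% of the basal Col11a2 reads lay in 1 well, which had at least 3 endothelial markers. The FACIT gene Col20a1 reached 2.01 CPM and Col28a1, a relative of the beaded filament collagens, 0.0445 CPM, both in embryonic wells. Col10a1, Col13a1, Col22a1 and Col6a5 had no read in any kept well.

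Levels per kilobase of exon were ordered within each gate, with length taken as the union of all annotated exons of a gene. This length was 12.4 kilobases for Col1a2, 9.82 for Col3a1, 4.38 for Col6a1 and 8.33 for Col6a2. It can exceed the length of the transcript in use, so the order depends on the annotation. In embryonic wells it was Col3a1 (124.3 CPM per kilobase), Col1a2 (119.9), Col1a1 (93.5), Col6a1 (34.1), Col9a3 (31.5), Col5a2 (20.3), Col5a1 (18.4) and Col14a1 (16.7). In basal wells it was Col16a1 (64.1), Col14a1 (46.6), Col9a3 (43.97), Col9a2 (30.3) and Col7a1 (7.998), and in luminal wells Col8a1 (18.3), Col9a3 (6.53), Col16a1 (5.08), Col9a1 (2.99) and Col8a2 (2.90). Neighbours such as Col3a1 and Col1a2, or Col14a1 and Col9a3, differed by far less than the range between wells.

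The genes that modify, cut and cross-link collagen were described by lists. Of 22 measured genes of modification and folding in the endoplasmic reticulum, 2 were 2-fold or more above and 4 below the basal level in embryonic wells, beside 33.8% and 19.4% of all genes. Against luminal wells 12 of 21 were higher and 0 lower, beside 39.3% and 17.6% of all genes. Sparc, a collagen-binding matrix protein, was at 1325 CPM in embryonic, 6105 in basal and 72.9 in luminal wells, and P4hb, a subunit of prolyl 4-hydroxylase, at 674, 453 and 686. Ppib, a prolyl isomerase, was at 130, 202 and 89.6 CPM, and Sec31a, a coat protein of secretory vesicles, at 151, 149 and 122.7. Much of this list is used by every secreting cell. Serpinh1, the collagen chaperone HSP47, was named after its values were seen, at 121.5, 45.6 and 5.38 CPM.

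Of 8 measured genes of propeptide cleavage and cross-linking, 4 were above and 2 below the basal level in embryonic wells, beside 33.8% and 19.4% of all genes. Bmp1, a procollagen C-proteinase, was alike in embryonic and basal wells (145 and 148 CPM) and at 50.4 in luminal wells. Lox, the enzyme that cross-links fibrils, was at 78.1 CPM in embryonic wells, with 3 reads in basal wells and 1.87 CPM in luminal wells, and was detected in 12 embryonic wells. Adamts2, a procollagen N-proteinase, was at 18.4, 38.8 and 0.0732 CPM, and Pcolce, an enhancer of the C-proteinase, at 9.95, 20.7 and 9.26. Against luminal wells 6 of 9 were higher and 2 lower, beside 39.3% and 17.6% of all genes, and basal against luminal wells gave 4 and 2 of 6, beside 28.3% and 21.3%.

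Fibril-associated proteins split between the gates. Of 9 measured, 4 were above and 5 below the basal level in embryonic wells, beside 33.8% and 19.4% of all genes. Postn, a matrix protein of collagen assembly, was at 56.2 CPM in embryonic, 1475 in basal and 8.76 in luminal wells, Dcn, the proteoglycan decorin, at 316, 924 and 54.2, and Prelp, another leucine-rich proteoglycan, at 9.64, 793.5 and 31.4. Fn1, fibronectin, had the opposite order at 697, 1.36 and 2.85 CPM and was detected in 98 embryonic wells. Among 8 measured collagen receptors 3 were above and 3 below the basal level in embryonic wells, beside 33.8% and 19.4% of all genes. Itgb1, the common integrin chain, was at 252, 370 and 286 CPM, and Adgrg1, an adhesion receptor, at 76.04, 217 and 74.1. Ddr1, a collagen-binding receptor kinase of epithelia, was at 121.1, 93.04 and 50.4 CPM, and Ddr2, its mesenchymal relative, at 83.8, 8.34 and 0.322. Among 7 measured genes of collagen degradation 3 were above and 2 below the basal level, again beside 33.8% and 19.4%. Mmp2, a gelatinase, was at 263, 872 and 10.8 CPM, and Mmp14, a membrane-bound metalloproteinase, at 195, 80.9 and 135.8. Their inhibitors Timp3 and Timp2 were at 29.9 and 164 CPM in embryonic, 298 and 285 in basal, and 23.9 and 211 in luminal wells.

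Across the kept embryonic wells, non-collagen genes were ranked by likeness to the sum of Col1a1, Col1a2 and Col3a1. Names of the form Gm and number, or ending in Rik, were left out. The first 10 were Adamtsl1, Inhba, Twist2, Ddah1, Fat4, Fndc1, Fbn2, AW551984, Lrig1 and Cd34. Their Spearman rho lay between 0.454 and 0.514, chosen among 7766 genes at 20 CPM or more. Wells share library chemistry but differ in depth (52687 to 1836609 gene reads), so these values are a description. With wells thinned to equal depth, 6 of the 10 were shared. Among members, Col6a1 (0.545), Col6a3 (0.480) and Col6a2 (0.416) had the highest rho to this sum besides its own 3 parts, whereas Col7a1 (0.05), Col2a1 (-0.04) and Col9a3 (-0.06) were near 0. The pair of members with the highest rho was Col6a1 and Col6a3 (0.612), and Col1a1 and Col1a2, which join in 1 triple helix, reached 0.529 with 3 shared top wells of 5.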

How the data were processed

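The authors deposited raw counts of reads for 49585 genes and 92 spike-ins in 384 wells. Libraries followed Smart-seq2 with changes (24 amplification cycles, oligo-dT primer, Nextera XT), per the labels' protocols. The submitters' processing notes name cutadapt 1.13, STAR 2.5.2b, HTSeq 0.6.0 and GRCm38. Options, annotation and strand mode were not given in the sources used here, and overlapping genes (Col1a2 and Gm43921, Col3a1 and Gm47302, Col5a2 and Gm38211, Col9a3 and Tcfl5) may share reads.

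Symbols, positions and exon lengths came from GENCODE M21, with 43749 identifiers matched in full, 5577 without version and 259 not matched. Counts were summed over wells with at least 50000 gene reads, without spike-ins, and scaled to CPM. Log2 ratios had a prior of 1 CPM, and folds are ratios of CPM without it, with exact conditional 95% intervals. Detection was 5 reads after thinning to 50000. With 1 sample a gate no test was made, and the calculation was tested on simulated data. All members at 5 CPM or more in any gate are named, those at 100 CPM or more with values by well, and up to 4 genes of each pathway list by level. Members and lists were chosen with earlier results of these data known. A single well with conflicting labels (luminal title, embryonic sort) entered no comparison. Tools were Python 3.11.15, numpy 2.4.6, pandas 2.3.3, scipy 1.17.1, matplotlib 3.10.9 and, for TMM factors, edgeR 4.0.16.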

Additional observations from a re-analysis of the deposited data

Results flagged for a closer look

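The well in no group, which carries a luminal title, the adult genotype and the sort label of the embryonic gate, had 774060 gene reads, and the wells without a cell had no read of the 3 genes found in it. It held 165 reads of Col9a3, 45 of Col16a1 and 4 of Col9a1, and no read of Col1a1, Col1a2 or Col3a1. Its summed collagen level was 276 CPM. Of the 4 wells without a cell, 1 held 1 collagen read, of Col1a2, and the other 3 held 0. Dixon's criterion flags that well, but it would flag any read count in 1 well beside 3 wells at 0, so nothing is drawn from it. That well also had the most gene reads of the 4, at 563.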

How the results depend on the processing

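Alternatives are given for all kept wells unless named. The summed collagen level of the embryonic, basal and luminal gates, 4779.8, 1598 and 295 CPM, became 4870, 1571 and 289.8 with at least 200000 gene reads, 3971, 1564 and 282 without the well with most collagen reads, 4676, 1674 and 334 as a mean of per-well CPM, 4691, 1687 and 344 after thinning, 3983, 1663 and 339.8 with TMM, 3759, 1625 and 332 with median-of-ratios scaling, 7308, 964 and 317 with spike-in reads as total, and 9526, 1086 and 188 in the wells of 50 cells. The embryonic and basal levels were 959.9 and 1523 without wells with 3 mesenchymal markers, 4799 and 1752 without wells that match another gate, and 962.7 and 1780.3 without both and without pericyte and endothelial wells. They were 4402 and 1580.2 in plate rows A to F. The embryonic level was 4801 with at least 1500 genes and at most 20% mitochondrial reads and 2729 in plate rows F to K, and the basal level 1726 without basal wells with 3 luminal markers. The last setting and the one with pericyte and endothelial wells were chosen after seeing the data.

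The count of members lower in embryonic than in basal wells, 7, was 11 without all marked or mismatched wells and 11 in plate rows A to F, where 8 embryonic wells lay, while the share of all genes lower went from 19.4% to 19.3% and 34.1%. In the wells of 50 cells, members lower in embryonic than luminal wells went from 4 of 25 measured to 2 of 21. The share of all genes lower went from 17.6% to 22.2%. Members lower in basal than luminal wells went from 2 of 19 to 0 of 17, and the share of all genes lower from 21.3% to 27%. With 1 top well in place of 5, 2 members in each gate held 50% of their reads, against 17, 11 and 7. The share of all genes was not counted for 1 top well. Among the non-collagen genes most like the fibrillar sum, 6 of 10 were shared after thinning. Log2 ratios of called members changed sign as follows, and the cause was not tested. Embryonic against basal, Col23a1 was -2.31 without mesenchymal-marked wells, -2.61 without all marked or mismatched wells, -1.19 in wells of 50 cells and -4.13 in rows A to F. In the first 2 of these settings Col5a2 was -0.85 and -1.14, Col6a1 -0.71 and -1.003, and Col6a3 -1.99 and -2.04. Col8a1 was 2.24 without wells matching another gate, 1.92 without all marked or mismatched wells and 2.44 without luminal-marked basal wells. Embryonic against luminal, Col11a1 was 0.16 in wells of 50 cells, Col25a1 -2.28 in rows F to K, and Col8a2 0.17 both with the mean of per-well CPM and after thinning. Basal against luminal, Col11a1 was -0.094 with the mean of per-well CPM and -0.093 after thinning, and Col8a2 1.41 in wells of 50 cells. Of called members 17 of 22, 21 of 24 and 15 of 17 never changed sign. Only 10, 15 and 11 stayed both measured and at 2-fold or more under every alternative. A member that fell under 5 CPM in both gates counted as not staying, even where its ratio remained large. The median of all genes shifted by scaling: embryonic against basal it was 0.38 in CPM, 0.04 with TMM, -0.02 with median-of-ratios and 1.76 with spike-in totals, where 19 of 27 members and 71% of all genes were higher and 6 members and 8.08% of all genes lower. The basal against luminal median was -0.74 with spike-in totals. Depth limits the detection of low members, since 5 of 50000 reads is a high level. No paired analysis was possible because the wells carry no shared replicate numbers.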
